A study of Mus musculus with 6 samples.

Results

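The SLC25 family of mitochondrial carriers was followed in bEnd.3 cells, a mouse line labelled as endothelial, after the cells had been given mitochondria from astrocytes. Members were taken as every protein-coding gene whose GRCm38 symbol reads Slc25a followed by a number. This gave 47 genes of the 55335 gene identifiers in the deposited tables. Expression was measured by mRNA sequencing in 6 libraries of wild-type bEnd.3 cells. In the mitochondria group (3 libraries), cells were incubated for 24 h with mitochondria isolated from primary mouse astrocytes and taken up in 100 µl of medium. In the control group (3 libraries), cells received the same volume of medium alone. Nothing in the labels ties the replicates to independent cultures. The p-values therefore reflect the scatter of these 6 libraries alone, which may be technical. In these bulk libraries, fewer cells of a type and less RNA per cell cannot be told apart.

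SLC25 proteins are the main route by which metabolites cross the inner mitochondrial membrane. They are built from repeats of a pair of membrane helices, and they move nucleotides, phosphate, carboxylates, amino acids, acylcarnitines and cofactors between the cytosol and the matrix. All are encoded in the nucleus and imported after translation, so a transferred mitochondrion brings carrier proteins but not the genes for them.

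After 24 h with mitochondria, no carrier transcript passed the test. Of the 47 members, 38 reached 1 FPKM (fragments per kilobase of transcript, scaled to library size) in at least 3 of the 6 libraries and were tested, and none had a Benjamini-Hochberg adjusted p under 0.05 in limma, the adjustment running over 12639 genes. That rule called 1.12% of all genes tested, 0.467% higher and 0.649% lower. At such a share, the absence of calls among 38 members says little about them. An unadjusted p under 0.05 was found for 7 members, of which 2 were higher and 5 lower with mitochondria. The same unadjusted rule took 13.9% of all genes tested, 6.58% higher and 7.32% lower, and 18.4% of the tested members. The members were Slc25a24 and Slc25a27, with higher values, and Slc25a15, Slc25a25, Slc25a51, Slc25a22 and Slc25a37, with lower values. Unless another setting is named, every log2 change below is the mitochondria mean of log2(FPKM + 1) minus the control mean. They ran from −0.44 in Slc25a25 to 0.26 in Slc25a24. This scale understates the change of low genes. The 95% interval of the log2 change lay inside a 1.5-fold change of FPKM + 1 in either direction for 33 of the 38 members. It did so for 89.0% of all genes tested.

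**Figure D1:**
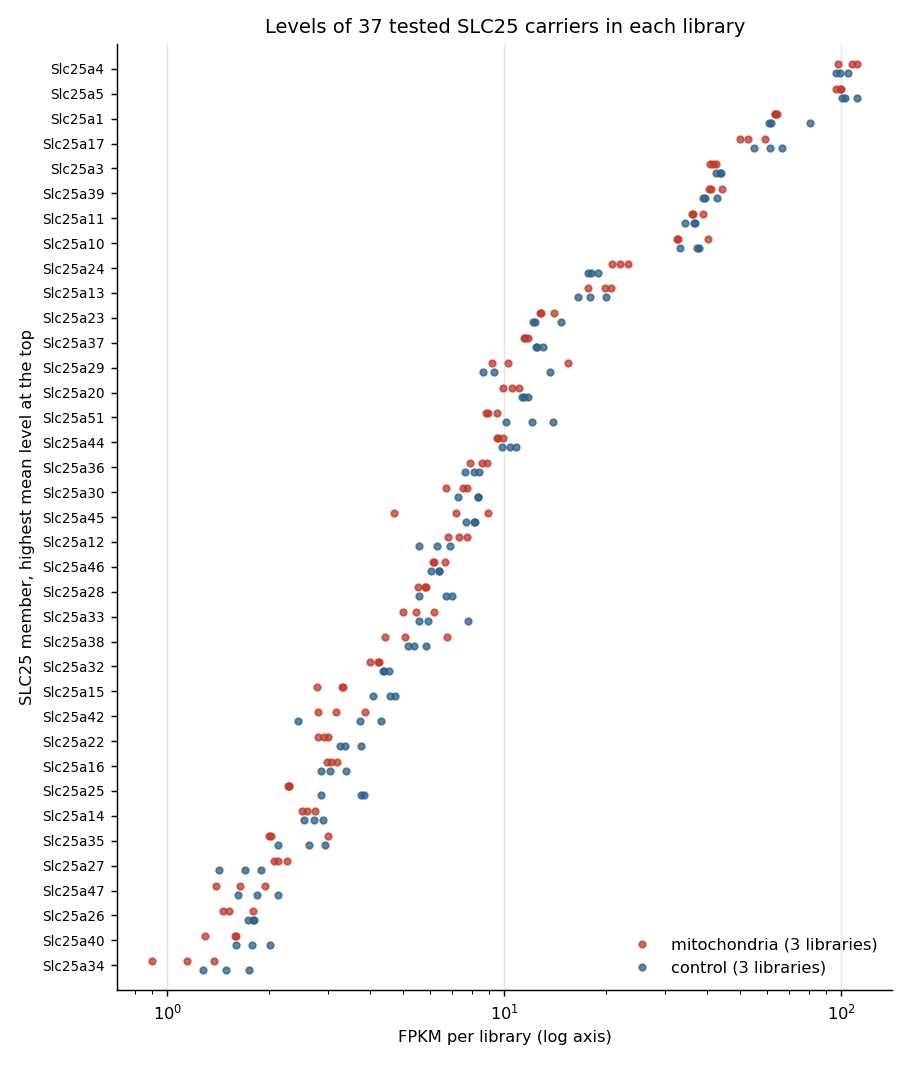
FPKM (log axis) of 37 of the 38 tested SLC25 members, 1 row per gene from the highest mean level to the lowest, with 3 mitochondria libraries (red) above 3 control libraries (blue) in each row. Slc25a4 and Slc25a5 stand near 100 FPKM at the top, and within nearly every row the points of the groups lie close together.

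As a check of what the cells were, the labelled cell type was set against its markers. Among 12 endothelial genes, 7 never reached 1 FPKM, and Cdh5, which encodes VE-cadherin, did not exceed 0.0685 FPKM. The summed endothelial list held 157 to 169 FPKM in mitochondria libraries and 135 to 143 FPKM in control libraries, most of it from Eng and Cd34. Within the list Cd34 rose, to 80.1 ± 1.84 FPKM in mitochondria libraries against 60.3 ± 2.49 FPKM in control libraries (SD, n = 3 each; limma adjusted p = 0.0265). The receptors Flt1 and Kdr had lower values with mitochondria, without overlap, and did not pass (log2 changes −0.33 and −0.31, limma adjusted p = 0.114 and 0.143). Among 10 astrocyte genes, 6 never reached 1 FPKM and Aqp4, Gjb6 and Sox9 were at 0, while the summed list held 42.1 to 48.2 FPKM in mitochondria libraries and 26.5 to 63.3 FPKM in control libraries. The wide control range came from Gja1, which lay between 11.7 and 46.0 FPKM there. Of the 10 astrocyte genes, 3 had higher values with mitochondria without overlap. Among the 3 genes of the list that were tested, this held for Aldoc alone. Over all genes tested it held for 9.62%, a share that does not cover genes too low to be tested. Aldh1l1, a folate enzyme, was at 1.06 ± 0.0910 FPKM in mitochondria libraries and 0.391 ± 0.0792 FPKM in control libraries, too low to be tested. Aldoc, a glycolytic aldolase, was at 17.9 ± 2.27 FPKM in mitochondria libraries and 14.1 ± 1.61 FPKM in control libraries (limma adjusted p = 0.268). Slc1a2, a glutamate transporter, was at 0.122 ± 0.0471 FPKM in mitochondria libraries and 0.0476 ± 0.0304 FPKM in control libraries, also untested. None of these 3 was called. Gja1, S100b and Slc1a3 had lower means in mitochondria than in control libraries (24.4 against 34.5, 0.944 against 1.001 and 0.0522 against 0.105 FPKM). Gfap had a higher mean (0.128 against 0.0771 FPKM). The groups overlapped in each of them. Slc25a18, a glutamate carrier enriched in astrocytes, was at 0.159, 0.0931 and 0.0435 FPKM in mitochondria libraries and at 0.0562, 0.0830 and 0.0280 FPKM in control libraries. The summed list of 10 fibroblast and mural genes, 6 of them under 1 FPKM throughout, held 157 to 166 FPKM in mitochondria libraries and 212 to 233 FPKM in control libraries, without overlap. In it the collagen gene Col1a1 fell, to 83.9 ± 3.19 FPKM in mitochondria libraries against 137.9 ± 2.45 FPKM in control libraries (log2 change −0.71, limma adjusted p = 0.00547), whereas Pdgfra and Acta2 had higher values without overlap and did not pass. Of 6 microglia genes, 5 stayed under 1 FPKM, and Tmem119 was at 190.9 ± 14.1 FPKM in mitochondria libraries and 240.9 ± 26.6 FPKM in control libraries (limma adjusted p = 0.182). The summed list of 5 neuron genes held 1.39 to 1.83 FPKM in mitochondria libraries and 0.792 to 1.43 FPKM in control libraries. The part of other cell types' RNA in the carrier values was not tested. Implied depths were 21800000 to 27200000 fragments in mitochondria libraries and 17000000 to 21100000 in control libraries, without overlap, and the part of depth in the carrier values was not tested.

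The bases before a few start sites are shown because these genes carry the results below: Slc25a15, Slc25a25 and Slc25a24 had the smallest p-values in the family, and Slc25a5 is one of its most abundant members. Each run is the 150 bases before a RefSeq start site whose window meets no annotated exon, on GRCm38.p6, written 5′ to 3′ on the strand of the gene. Capitals mark matches, on either strand, to the motifs listed after the sequences.
Slc25a15, chr8:22398278-22398427, minus strand: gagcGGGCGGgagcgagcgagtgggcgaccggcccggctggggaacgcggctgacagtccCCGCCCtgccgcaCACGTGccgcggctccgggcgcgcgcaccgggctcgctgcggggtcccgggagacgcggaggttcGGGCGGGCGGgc
Slc25a25, chr2:32424067-32424216, minus strand: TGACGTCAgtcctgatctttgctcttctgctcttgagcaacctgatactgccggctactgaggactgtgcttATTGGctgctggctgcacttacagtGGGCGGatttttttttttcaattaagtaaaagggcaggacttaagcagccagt
Slc25a24, chr3:109122999-109123148, plus strand: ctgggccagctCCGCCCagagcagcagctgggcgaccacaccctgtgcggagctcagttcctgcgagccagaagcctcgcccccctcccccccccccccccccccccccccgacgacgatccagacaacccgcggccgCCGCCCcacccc
Slc25a5, chrX:36795447-36795596, plus strand: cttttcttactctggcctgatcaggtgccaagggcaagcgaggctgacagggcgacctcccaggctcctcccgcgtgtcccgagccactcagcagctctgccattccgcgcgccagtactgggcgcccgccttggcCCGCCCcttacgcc

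The motifs searched were the E-box CACGTG, the CRE half-site TGACG and the full CRE TGACGTCA that contains it, the CCAAT box CCAAT, the GC box GGGCGG, the TATA box TATAAA, the NRF1 motif, the AP-1 motif TGANTCA and the CARE of ATF4, TGATGNAA, all on both strands. The RefSeq table held 46 start sites of 36 members, 29 of them tested, so the member shares below also count untested members. In the 250 bases before the start, 69.6% of the member start sites held a GC box, against 59.3% of the start sites of all genes tested here and 32.7% of all 32851 start sites. An E-box stood before 17.4% of member start sites, against 8.55% of those of genes tested and 6.02% of all. The Slc25a15 run shown above, before the second of its 2 start sites, holds 1 E-box and 4 GC boxes. A full CRE stood before 2 of the 46 member start sites, in Slc25a25 and Slc25a36, against 2.61% of the start sites of genes tested and 1.55% of all. The Slc25a25 run belongs to 1 of the start sites of that gene, and the gene-level values do not say which start was used. TATAAA was found before 2 member start sites, in Slc25a18 and Slc25a21, which were both nearly silent here, and this share of 4.35% stood against 6.24% of the start sites of genes tested. Shares below those of genes tested were also found, the CRE half-site at 23.9% against 27.2%, NRF1 at 4.35% against 8.41% and the CARE at 0 of 46 start sites against 1.85%. A CCAAT box stood before 45.7% of member start sites, against 35.6%, and AP-1 before 4.35% of both. None of these shares was tested. These are matches of letters, not measured binding.

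The adenine nucleotide translocases, which exchange matrix ATP for cytosolic ADP, led the family. Slc25a4 (ANT1; ENSMUSG00000031633, chromosome 8, 46206797 to 46211284) was at 108, 111 and 97.7 FPKM in mitochondria libraries and at 104, 98.9 and 96.1 FPKM in control libraries. The groups overlapped (log2 change 0.08, SE 0.07, limma adjusted p = 0.665). Slc25a5 (ANT2; ENSMUSG00000016319, chromosome X, 36795651 to 36798807), the form of dividing cells, was at 99.8, 99.2 and 96.3 FPKM in mitochondria libraries and at 111, 102 and 100.1 FPKM in control libraries. Every mitochondria library was below every control library, yet the difference did not pass (log2 change −0.08, SE 0.06, limma adjusted p = 0.574). Slc25a4 made up 14.99% of the family's summed FPKM and Slc25a5 14.8%, and their mean levels differed by less than their spread over libraries. Slc25a31, the testis form ANT4, was at 0 in every library.

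The balance between the pair did not overlap between the groups. Slc25a4 made up 51.9%, 52.8% and 50.4% of the summed FPKM of Slc25a4 and Slc25a5 in mitochondria libraries, and 48.4%, 49.2% and 49.0% in control libraries. All mitochondria libraries were above all control libraries, with means of 51.7% ± 1.25 and 48.8% ± 0.414 (SD, n = 3 each). A share within a library does not depend on how libraries are scaled. No test is given, because this and all other shares given were chosen after the values were seen. Of the 31-base words in Slc25a5 transcripts, 49.4% also occur in 13 processed pseudogenes, chiefly Gm5560, so a fragment from such a stretch has more than 1 possible origin. The summed FPKM of these pseudogenes was 2.36, 2.55 and 1.86 in mitochondria libraries and 3.24, 2.74 and 2.37 in control libraries, with overlap. This is small beside Slc25a5 itself. It depends on how the shared fragments were assigned, so it cannot show how many were assigned to the wrong gene.

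The phosphate carrier and the calcium-regulated ATP-Mg/phosphate carriers set the supply of phosphate and the size of the matrix nucleotide pool. Slc25a3 (ENSMUSG00000061904), the phosphate carrier of ATP synthesis, had the lowest coefficient of variation of the family, at 41.7, 40.6 and 42.6 FPKM in mitochondria libraries and 43.5, 43.9 and 42.3 FPKM in control libraries (log2 change −0.05, SE 0.05, limma adjusted p = 0.665). The groups overlapped.

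The ATP-Mg/phosphate carriers differed among themselves in direction. Slc25a24 (SCaMC-1; ENSMUSG00000040322, chromosome 3, 109123149 to 109168457) was at 22.0, 23.3 and 20.8 FPKM in mitochondria libraries, and at 18.1, 18.9 and 17.7 FPKM in control libraries. The groups did not overlap, and the log2 change of 0.26 had a 95% interval of 0.12 to 0.40 (SE 0.06, unadjusted p = 0.00336, limma adjusted p = 0.116). Slc25a25 (SCaMC-2; ENSMUSG00000026819, chromosome 2, 32414487 to 32451445) was at 2.28, 2.30 and 2.30 FPKM in mitochondria libraries, and at 3.75, 3.83 and 2.86 FPKM in control libraries. The mitochondria libraries were nearly equal and below all controls, of which replicate 3 was the lowest. The log2 change was −0.44, with a 95% interval of −0.67 to −0.20 (SE 0.10, unadjusted p = 0.00331, limma adjusted p = 0.116). Without control replicate 3 it was −0.54 and passed (limma adjusted p = 0.0428). Over the settings that tested Slc25a25, the limma adjusted p ran from 0.0428 to 0.324. Slc25a23 (SCaMC-3), with 13.2 ± 0.720 FPKM in mitochondria libraries and 13.1 ± 1.44 FPKM in control libraries (SD, n = 3 each), had a log2 change of 0.01. Slc25a41, the remaining member of this branch, was under 1 FPKM in all libraries but control replicate 3, where it was at 1.33 FPKM, and it was not tested.

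The shares within this branch restate the values of the same genes and were not tested. Slc25a24 made up 59.3%, 60.7% and 56.0% of the summed FPKM of Slc25a23, Slc25a24 and Slc25a25 in mitochondria libraries, against 52.9%, 54.1% and 50.2% in control libraries. Slc25a25 made up 6.14%, 6.01% and 6.19% in mitochondria libraries, against 10.95%, 10.98% and 8.08% in control libraries. Neither share overlapped between the groups, whereas that of Slc25a23 did. The total of the phosphate and ATP-Mg/phosphate group, Slc25a3 included, was 79.8 ± 0.699 FPKM in mitochondria libraries and 78.8 ± 0.680 FPKM in control libraries (SD, n = 3 each).

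**Figure D2:**
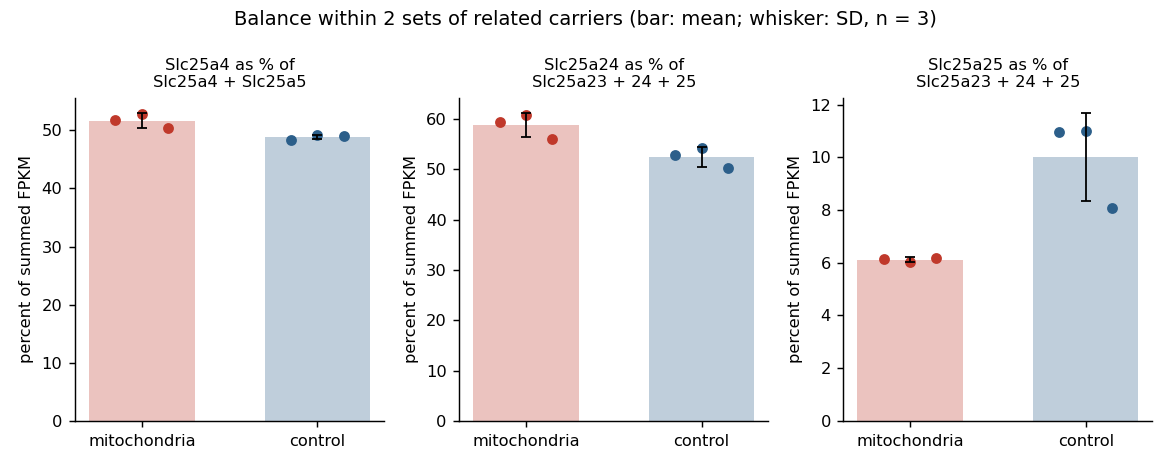
Percent of summed FPKM held by Slc25a4 in the sum of Slc25a4 and Slc25a5, and by Slc25a24 and Slc25a25 in the sum of Slc25a23, Slc25a24 and Slc25a25. Bars stand at the group mean, with whiskers of 1 SD (n = 3) and a point per library. In each panel the mitochondria libraries (red) and the control libraries (blue) do not overlap, with Slc25a4 at 51.7% and 48.8% on average.

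Carriers of nucleotides and cofactors had mostly negative log2 changes, though none passed and most were small. All 9 were tested, and 8 had a negative log2 change, as did 52.0% of all genes tested. The 95% interval excluded 0 for Slc25a51 alone. The group was chosen with earlier results of these data known, and its count of signs was not tested. Slc25a17 (ENSMUSG00000022404), a peroxisomal carrier of coenzyme A and related nucleotides and the highest of the group, was at 53.0, 59.3 and 50.04 FPKM in mitochondria libraries and at 66.9, 61.3 and 55.2 FPKM in control libraries (log2 change −0.17, SE 0.09, limma adjusted p = 0.465). Its groups overlapped. Slc25a51 (ENSMUSG00000045973, chromosome 4, 45395923 to 45408766), which brings NAD into the matrix, was at 9.54, 8.83 and 8.96 FPKM in mitochondria libraries and at 14.0, 10.1 and 12.1 FPKM in control libraries. The groups did not overlap, and the controls were spread widely (log2 change −0.36, 95% interval −0.62 to −0.10, SE 0.11, unadjusted p = 0.0137, limma adjusted p = 0.212). Negative values were also found for Slc25a16 and Slc25a42, linked to coenzyme A, Slc25a26 for S-adenosylmethionine, Slc25a32 for folate and FAD, and Slc25a33 for pyrimidine nucleotides, with log2 changes of −0.17 to −0.01. Slc25a36, the other pyrimidine nucleotide carrier, was at 8.44 ± 0.493 FPKM in mitochondria libraries and 8.07 ± 0.391 FPKM in control libraries. Slc25a33 held 39.7% ± 3.99 of the sum of this pair in mitochondria libraries and 44.2% ± 5.46 in control libraries (SD, n = 3 each), with overlap. The summed group held 93.5 ± 4.94 FPKM in mitochondria libraries and 105.2 ± 7.98 FPKM in control libraries (SD, n = 3 each). Control replicate 1 was the highest library, at 114 FPKM, and Slc25a17 was the largest part of the sum.

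Carboxylate carriers, which move intermediates of the citric acid cycle, were abundant and had intervals that included 0. Slc25a1 (ENSMUSG00000003528), which exports citrate for fatty acid synthesis, was at 63.6, 64.5 and 63.4 FPKM in mitochondria libraries and at 80.5, 61.1 and 61.6 FPKM in control libraries. Control replicate 1 alone stood above the rest, and the log2 change of −0.07 (SE 0.11, limma adjusted p = 0.814) was 0.06 without that library. Slc25a11, the oxoglutarate carrier of the malate-aspartate shuttle, was at 36.0, 36.4 and 38.8 FPKM in mitochondria libraries and at 36.5, 36.9 and 34.3 FPKM in control libraries (log2 change 0.05, SE 0.05, limma adjusted p = 0.774). Slc25a10, the dicarboxylate carrier, was at 32.5, 32.7 and 40.3 FPKM in mitochondria libraries and at 37.4, 33.2 and 37.8 FPKM in control libraries (log2 change −0.04, SE 0.10, limma adjusted p = 0.894). In both genes the groups overlapped, and Slc25a10 made up 48.6% ± 2.03 and 50.1% ± 2.57 of their sum in mitochondria and control libraries (SD, n = 3 each). Slc25a21, the carrier of oxoadipate, did not exceed 0.0416 FPKM.

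Among amino acid carriers, 7 of 9 were tested, 3 with positive and 4 with negative log2 changes. Slc25a15 (ORNT1; ENSMUSG00000031482, chromosome 8, 22375551 to 22398597), which exchanges ornithine for citrulline, had the smallest p-value of the family. It was at 3.30, 3.32 and 2.78 FPKM in mitochondria libraries and at 4.75, 4.59 and 4.09 FPKM in control libraries. The groups did not overlap, and the log2 change of −0.41 had a 95% interval of −0.61 to −0.21 (SE 0.08, unadjusted p = 0.00199, limma adjusted p = 0.0887). In the settings that tested Slc25a15, other pseudocounts included, its log2 change lay between −0.52 and −0.34. Its limma adjusted p there lay between 0.0694 and 0.258. Slc25a22 (GC1; ENSMUSG00000019082), a glutamate carrier, was at 2.93, 2.79 and 2.99 FPKM in mitochondria libraries and at 3.76, 3.37 and 3.27 FPKM in control libraries. Its groups did not overlap either (log2 change −0.19, SE 0.07, unadjusted p = 0.0294, limma adjusted p = 0.293).

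The aspartate-glutamate carriers of the malate-aspartate shuttle both had positive log2 changes. Slc25a13 (citrin), the highest amino acid carrier, was at 20.7, 19.9 and 17.7 FPKM in mitochondria libraries and at 18.01, 20.1 and 16.6 FPKM in control libraries (log2 change 0.09, SE 0.09, limma adjusted p = 0.705). Slc25a12 (aralar) was at 6.81, 7.32 and 7.77 FPKM in mitochondria libraries and at 6.33, 5.58 and 6.90 FPKM in control libraries (log2 change 0.19, SE 0.09, limma adjusted p = 0.382). The groups overlapped in both, and Slc25a12 held 27.4% ± 2.88 of their sum in mitochondria libraries and 25.7% ± 3.81 in control libraries (SD, n = 3 each).

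Slc25a29, a carrier of basic amino acids, had the largest spread within groups of the tested members. It was at 9.18, 10.3 and 15.4 FPKM in mitochondria libraries and at 9.33, 8.65 and 13.7 FPKM in control libraries. Replicate 3 was the highest library of both groups, and the log2 change of 0.12 had an interval of −0.40 to 0.64. Replicate 3 was the highest in both groups for 8 tested members, among them Slc25a38, a carrier needed for glycine in heme synthesis, and Slc25a10. It was the lowest in both for 10, among them Slc25a42, Slc25a13 and Slc25a4. The same counts were not made over all genes tested, so they cannot be read as a trait of the carriers. Slc25a44, which carries branched-chain amino acids, was at 9.67 ± 0.228 FPKM in mitochondria libraries and 10.3 ± 0.491 FPKM in control libraries. Slc25a2, a paralog of Slc25a15, was at 0.0481, 0.0693 and 0.0913 FPKM in mitochondria libraries and at 0.147, 0.125 and 0.186 FPKM in control libraries, too low to be tested.

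Iron and glutathione carriers were led by Slc25a39, which imports glutathione into mitochondria. It was at 41.1, 40.4 and 44.2 FPKM in mitochondria libraries and at 42.7, 39.5 and 38.8 FPKM in control libraries (log2 change 0.05, SE 0.06, limma adjusted p = 0.748). Its paralog Slc25a40 was far lower, at 1.593, 1.597 and 1.29 FPKM in mitochondria libraries and at 1.78, 2.02 and 1.597 FPKM in control libraries. Its groups touch at 1.597 FPKM, so its count among the members without overlap rests on a difference below the digits given. Slc25a39 made up 96.5% ± 0.537 of the pair in mitochondria libraries and 95.7% ± 0.514 in control libraries (SD, n = 3 each), without overlap. Slc25a37 (mitoferrin-1; ENSMUSG00000034248), an iron importer, was at 11.5, 11.4 and 11.7 FPKM in mitochondria libraries and at 12.4, 12.5 and 13.1 FPKM in control libraries. The groups did not overlap but stood close together (log2 change −0.12, SE 0.05, unadjusted p = 0.0476, limma adjusted p = 0.353). Slc25a28 (mitoferrin-2) was at 5.74 ± 0.184 FPKM in mitochondria libraries and 6.43 ± 0.743 FPKM in control libraries, and Slc25a37 held 66.8% ± 0.741 and 66.4% ± 2.21 of the mitoferrin sum in mitochondria and control libraries.

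The uncoupling protein relatives had 1 member of middling level and 2 low ones. Slc25a27 (UCP4; ENSMUSG00000023912, chromosome 17, 43641891 to 43667214), best known from neurons, was at 2.26, 2.07 and 2.13 FPKM in mitochondria libraries and at 1.71, 1.42 and 1.89 FPKM in control libraries. All mitochondria libraries were above all controls (log2 change 0.24, 95% interval 0.03 to 0.45, SE 0.09, unadjusted p = 0.0284, limma adjusted p = 0.290). Slc25a30 (KMCP1), the highest of the 3, was at 7.56, 6.70 and 7.73 FPKM in mitochondria libraries and at 8.37, 8.38 and 7.29 FPKM in control libraries, and Slc25a14 (UCP5) was at 2.61 ± 0.123 FPKM in mitochondria libraries and 2.72 ± 0.181 FPKM in control libraries. The groups overlapped in both.

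**Figure D3:**
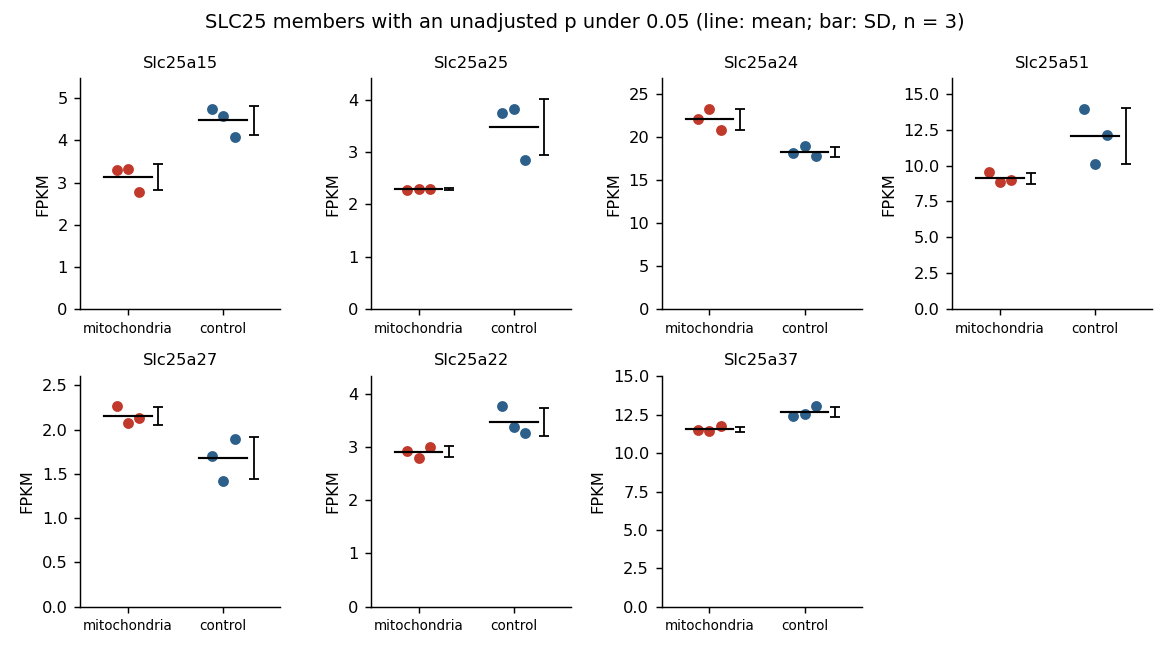
FPKM of the 7 SLC25 members with an unadjusted p under 0.05, 3 mitochondria libraries (red) left of 3 control libraries (blue) in each panel, with the mean as a line and a bar of 1 SD. The groups do not overlap in any of the 7 panels, Slc25a15 averaging 3.13 FPKM with mitochondria and 4.48 FPKM in control, but no adjusted p is under 0.05. Choosing panels by p-value favours groups without overlap, and the groups did not overlap for 21.0% of all genes tested.

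The remaining members were tested singly or were without a settled substrate. Slc25a20, which carries acylcarnitines to fatty acid oxidation, was at 9.88, 10.6 and 11.1 FPKM in mitochondria libraries and at 11.7, 11.3 and 11.4 FPKM in control libraries (log2 change −0.12, SE 0.06, limma adjusted p = 0.424). The groups did not overlap. Slc25a46, an outer membrane protein of mitochondrial shape rather than a known transporter, was at 6.21, 6.68 and 6.13 FPKM in mitochondria libraries and at 6.41, 6.07 and 6.41 FPKM in control libraries, a log2 change of 0.01. Slc25a45 was at 4.70, 7.21 and 8.92 FPKM in mitochondria libraries and at 8.19, 7.70 and 8.14 FPKM in control libraries. Its mitochondria libraries were spread on both sides of the controls (log2 change −0.22, SE 0.19, limma adjusted p = 0.667), and without mitochondria replicate 1 the change was 0.0025. Slc25a34, Slc25a35 and Slc25a47 averaged 1.14, 2.35 and 1.66 FPKM in mitochondria libraries and 1.51, 2.57 and 1.87 FPKM in control libraries. Of the Slc25a35 exons, 31.3% of bases overlap Rangrf on the opposite strand, so the 2 genes' reads can be told apart only if strand was used.

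The 9 members that were not tested were Slc25a41, Slc25a43, Slc25a53, Slc25a2, Slc25a18, Slc25a48, Slc25a21, Slc25a54 and Slc25a31, and 8 of them stayed under 1 FPKM in every library. Slc25a43 was the highest of these after Slc25a41, at 0.793, 0.836 and 0.556 FPKM in mitochondria libraries and at 0.318, 0.605 and 0.423 FPKM in control libraries. These groups overlapped, and 1 fragment on a transcript of 1 kb is worth 0.0368 to 0.0587 FPKM here, so such values rest on few fragments.

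Over the family, the levels spanned from 0 to about 100 FPKM and were concentrated in a few genes. The 4 highest members, Slc25a4, Slc25a5, Slc25a1 and Slc25a17, held 47.8% of the summed FPKM and the 8 highest held 70.6%, while 22 members averaged between 1 and 10 FPKM. The median tested member was at 7.13 FPKM, against 7.29 FPKM for the median of all genes tested. Neighbours in the order of levels often could not be ranked: Slc25a4 and Slc25a5 overlapped, as did Slc25a3 and Slc25a39, and Slc25a11 and Slc25a10. The family's summed FPKM was 668, 683 and 677 in mitochondria libraries and 729, 677 and 674 in control libraries, means of 676 ± 7.79 and 693 ± 31.03 (SD, n = 3 each). The groups overlapped, and only control replicate 1 stood apart. The family made up 0.229% to 0.236% of all FPKM in mitochondria libraries and 0.235% to 0.245% in control libraries.

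Small negative changes outnumbered positive ones. Of the 38 tested members, 27 had a log2 change below 0 and 11 above, against 52.0% and 48.0% of all genes tested. The median log2 change was −0.08 for the members and −0.01 for all genes tested, and it was −0.04 for the members without control replicate 1. The groups did not overlap for 11 members, 2 higher and 9 lower, where 21.0% of all genes tested did not overlap, 9.62% higher and 11.4% lower. The members varied between libraries about as much as other genes, with a median residual SD of 0.10 in log2 units in both. No test is given for the family as a whole.

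**Figure D4:**
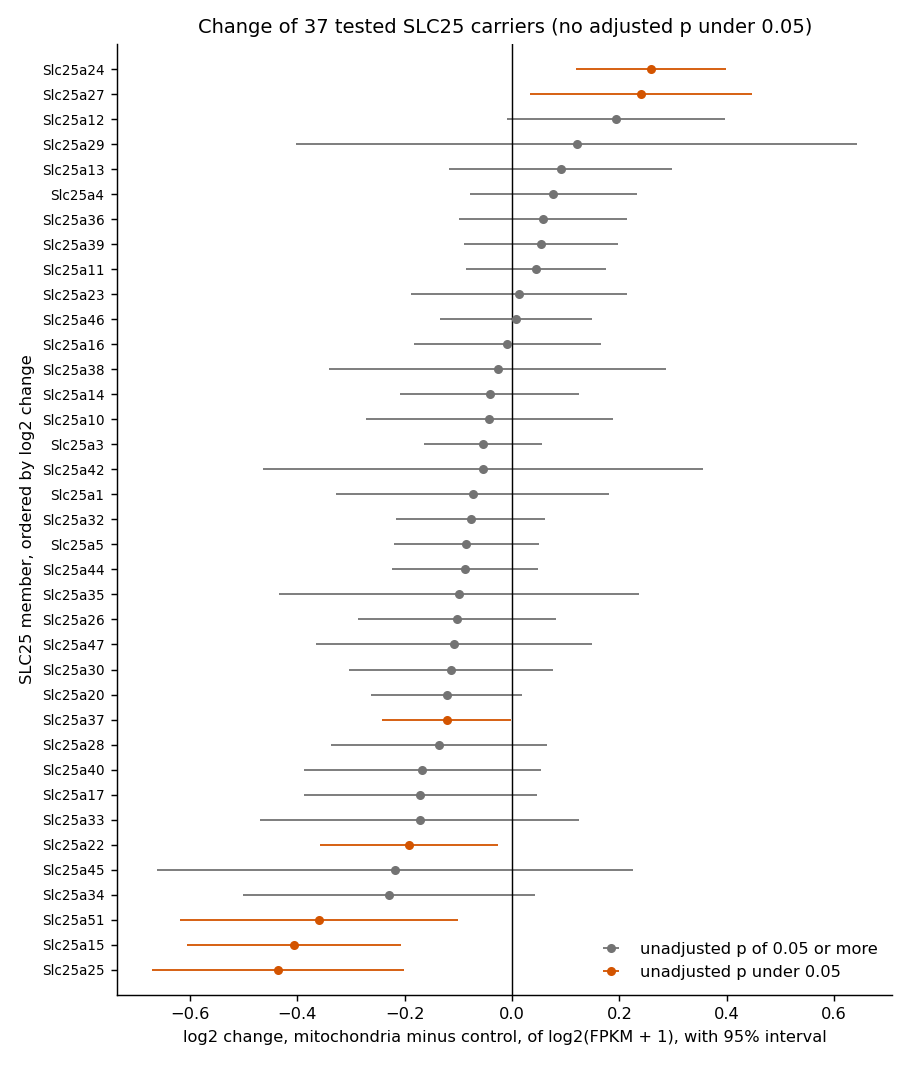
Log2 change (mitochondria minus control, of log2(FPKM + 1)) with its 95% interval for 37 of the 38 tested SLC25 members, ordered by change, with the 7 members at an unadjusted p under 0.05 in orange. The values run from −0.44 (Slc25a25) to 0.26 (Slc25a24), and 26 of those plotted lie below 0.

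Related transporters and the machinery that inserts carriers had no member called. Over all genes tested, limma called 1.12%, and 13.9% had an unadjusted p under 0.05. At such shares, the absence of calls in lists this short says little about their genes. Of the carrier relatives Ucp1, Ucp2, Ucp3, Mtch1 and Mtch2, 3 were tested and none was called in limma, with 1 lower at an unadjusted p under 0.05. This was Ucp2, a carrier of the uncoupling protein group, with 26.4 ± 0.788 FPKM in mitochondria libraries and 30.7 ± 0.805 FPKM in control libraries (SD, n = 3 each; log2 change −0.21, limma adjusted p = 0.122). Of 20 other mitochondrial transporters, among them the pyruvate carrier, the sideroflexins, the voltage-dependent anion channels and the calcium uniporter, 19 were tested and none was called, with 1 higher at an unadjusted p under 0.05. This was the serine transporter Sfxn1, with 4.97 ± 0.114 FPKM in mitochondria libraries and 3.88 ± 0.371 FPKM in control libraries (log2 change 0.29, limma adjusted p = 0.142). Of 7 genes of the carrier import route through TIM22, all were tested, none was called and 1 was lower at an unadjusted p under 0.05. It was the chaperone Timm9, with 1.48 ± 0.0866 FPKM in mitochondria libraries and 1.92 ± 0.0292 FPKM in control libraries (log2 change −0.23, limma adjusted p = 0.197). The 13 mRNAs encoded by mitochondrial DNA had none called and none at an unadjusted p under 0.05 in limma, with a median log2 change of 0.08.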

How the data were processed

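The authors deposited a table for each library, with a value for each of 55335 mouse genes. From their form these deposited values were taken to be FPKM, since the headers name no unit. FastQC 0.11.5, STAR 2.5.3a and StringTie 1.3.1c with GRCm38 (mm10) are named, without roles, per the submitters' processing notes, and no source used here gives the strand setting. Symbols came from GENCODE M21 (55154 identifiers matched). All 47 members matched by symbol. A gene was tested if 3 libraries or more had it at 1 FPKM. The test was limma 3.58.1 (R 4.3.3, trend and robust options) on log2(FPKM + 1), comparing the groups with no covariate, two-sided, Benjamini-Hochberg over all genes tested, and the code was tested on simulated data. Depth was estimated from the FPKM step worth 1 fragment. Counts were not analysed here, so no count model was used. Named members were those at an unadjusted p under 0.05, the 8 most abundant and the highest of each role group, and the other members are given more briefly. The values of 1 tested member are not reported here, though it is in the counts and sums. Members, role groups and lists were chosen with earlier results of these data known. Alternatives were other pseudocounts, filters, scalings and variance models, a replicate block, and each library left out. Shared words were 31 bases long, and promoter sequences came from RefSeq (GRCm38.p6).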

Additional observations from a re-analysis of the deposited data

How the results depend on the processing

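The count of 0 called members held in limma under every alternative run but 1: without control replicate 3, Slc25a25 was called, so that leaving out single libraries gave 0 to 1 called members. Over all genes the 141 calls became 13 with no filter, 56 with the replicate block, and 14 to 88 with a library left out. With so few calls over all genes, a count of 0 members is likely under any setting, so its holding says little. Of 38 tested members, 7 had an unadjusted limma p under 0.05, against 4 to 9 without a library. Where the mean had to reach 5 FPKM, 24 members were tested and 3 had such a p. Slc25a15, Slc25a22, Slc25a25 and Slc25a27 fell below that filter and were not tested there. The members' median log2 change of −0.08 was −0.054 with no filter (46 members tested). It was −0.048 where the mean had to reach 5 FPKM (24 tested), and −0.083 to −0.044 without a library. The family's summed FPKM was 2.53% lower with mitochondria than in control, and −3.89% to 0.05% different without a library. Of 316 values of 20 named members under the alternatives, 6 changed sign, each with a library left out and none past the threshold in limma: Slc25a1 (0.055; range without a library −0.14 to 0.055), Slc25a10 (0.0094 and 0.0050, range −0.14 to 0.0094), Slc25a45 (0.0025, range −0.40 to 0.0025) and Slc25a46 (−0.025 and −0.015, range −0.025 to 0.029). The replicate block called 0 members. The labels share replicate numbers between groups but do not say that the numbers pair libraries, so the main fit took no pairing. Deviations of same-numbered libraries correlated at 0.10, 0.05 and 0.30. Those of differently numbered libraries correlated at −0.20 to 0.12, and all that involved replicate 3 were negative. Deviations were taken from the group mean and sum to 0 within a group. The negative values therefore partly follow from the 0.30 and are not a separate observation. A factor shared by the replicate 3 libraries was not tested. Depth limits what can be said of the 9 members that were not tested.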

Other observations

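Several carriers lie beside each other in the genome at very different levels. On chromosome X, Slc25a43 (36743659 to 36777202) averaged 0.728 ± 0.151 FPKM in mitochondria libraries and 0.449 ± 0.145 FPKM in control libraries, while its neighbour Slc25a5 (36795651 to 36798807) averaged 98.5 ± 1.86 and 105 ± 6.02 FPKM (SD, n = 3 each). On chromosome 3, Slc25a54 (109080469 to 109116687) was above 0 in 1 library, mitochondria replicate 3, at 0.0234 FPKM, beside Slc25a24 (109123149 to 109168457), at 22.0 ± 1.22 FPKM in mitochondria libraries and 18.3 ± 0.599 FPKM in control libraries. On chromosome 12, Slc25a29 (108825873 to 108835883, minus strand) and Slc25a47 (108836046 to 108856815, plus strand) start next to each other. Slc25a47, known from liver, averaged 1.66 ± 0.276 FPKM in mitochondria libraries and 1.87 ± 0.261 FPKM in control libraries, against 11.6 ± 3.33 and 10.6 ± 2.73 FPKM for Slc25a29.

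Besides Slc25a5, the members with the largest share of 31-base words in other genes were Slc25a35, at 27.5%, chiefly in Rangrf, and Slc25a33, at 13.5%, all in Gm13068. Values of these 2 carriers can include reads of the overlapping genes.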
